A study of Mus musculus with 7 samples.

Results

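The Wnt genes described here are the secreted Wnt ligands, their Frizzled and Lrp receptors, the secreted and intracellular antagonists, and beta-catenin with its TCF partners. They were found by gene symbol among the array probes that carry 1 symbol: of 55 symbols sought, 54 had a probe, out of 18193 genes on the array, and Tcf7 had none. Where a gene had several probes, the one with the highest mean level was used. The samples were EGFP-positive glioma cells of C57/Bl6 origin that overexpressed PDGF-B and EGFP from a bicistronic transcript. Secondary gliomas (n = 4) arose in NOD/SCID mice grafted with cells of early onset, low-grade primary gliomas, and tertiary gliomas (n = 3) in NOD/SCID mice grafted with cells of a secondary glioma. All 7 tumours were dissociated with trypsin and sorted by flow cytometry. Samples of a group are biological replicates by their labels, and the vector's promoter, the ages of the mice and the donor of each tumour were not known, so p-values measure the spread between these samples, and fewer cells of a type and less RNA per cell cannot be told apart.

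Wnt proteins are lipid-modified ligands that bind a Frizzled receptor together with the co-receptor Lrp5 or Lrp6. Binding disables a complex of Axin and Apc that otherwise marks beta-catenin for destruction, and beta-catenin then enters the nucleus and activates genes through TCF and LEF proteins. Other Wnt and Frizzled proteins act through cell polarity and calcium without beta-catenin. In the brain the pathway patterns the neural tube, shapes the blood-brain barrier and holds back the maturation of oligodendrocyte precursors, the cells that PDGF-driven gliomas resemble.

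Markers of oligodendrocyte precursors, averaged over 9 genes, lay between 10.1 and 10.6 on the log2 scale in all 7 arrays, and 0 of 9 passed the test. Markers of microglia and macrophages were also read in the sorted cells, with a mean over 21 genes of 9.96 to 10.6 in secondary and 5.92 to 6.75 in tertiary gliomas. Of the 21, 20 were called lower. Mature oligodendrocyte markers averaged 7.97 to 8.85 in secondary and 6.55 to 7.08 in tertiary gliomas. All 9 had a lower mean in tertiary gliomas, and 4 of 9 were called lower. Endothelial markers averaged 4.98 to 5.37 and 4.89 to 5.11, with 0 of 11 called, and Tek, Tie1, Robo4 and Ocln below the dim limit. Array profiles correlated at 0.943 or more within secondary and 0.934 or more within tertiary gliomas, and secondary glioma 3 correlated least with the tertiary ones (0.825 to 0.837).

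The comparison asks whether Wnt genes changed from the first to the second round of grafting. Of the 54 genes, 44 had a mean at or above the dim limit, a log2 value of 3.99 that marks the 25th percentile of all probes, and were tested. Only 1 of the 44 passed the test and none was called higher (limma, adjusted p under 0.05), against 7.38% of the 14453 genes tested (6.33% lower and 1.04% higher). That gene, Dkk2, entered the test only through its secondary values. Of the 43 members at or above the dim limit in both groups, limma called 0 (8 at an unadjusted p under 0.05), against 6.74% of the 14070 such genes. At an unadjusted p under 0.05 there were 9 of 44, 5 higher and 4 lower, against 23.8% of all genes. The 2 groups' values did not overlap in 4 of 44 members, against 21.9% of all genes, and 2 of 44 differed by at least 1 on the log2 scale, against 8.82%. The median log2 fold change of the tested members was 0.05, and 0.09 over all genes tested.

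**Figure D1:**
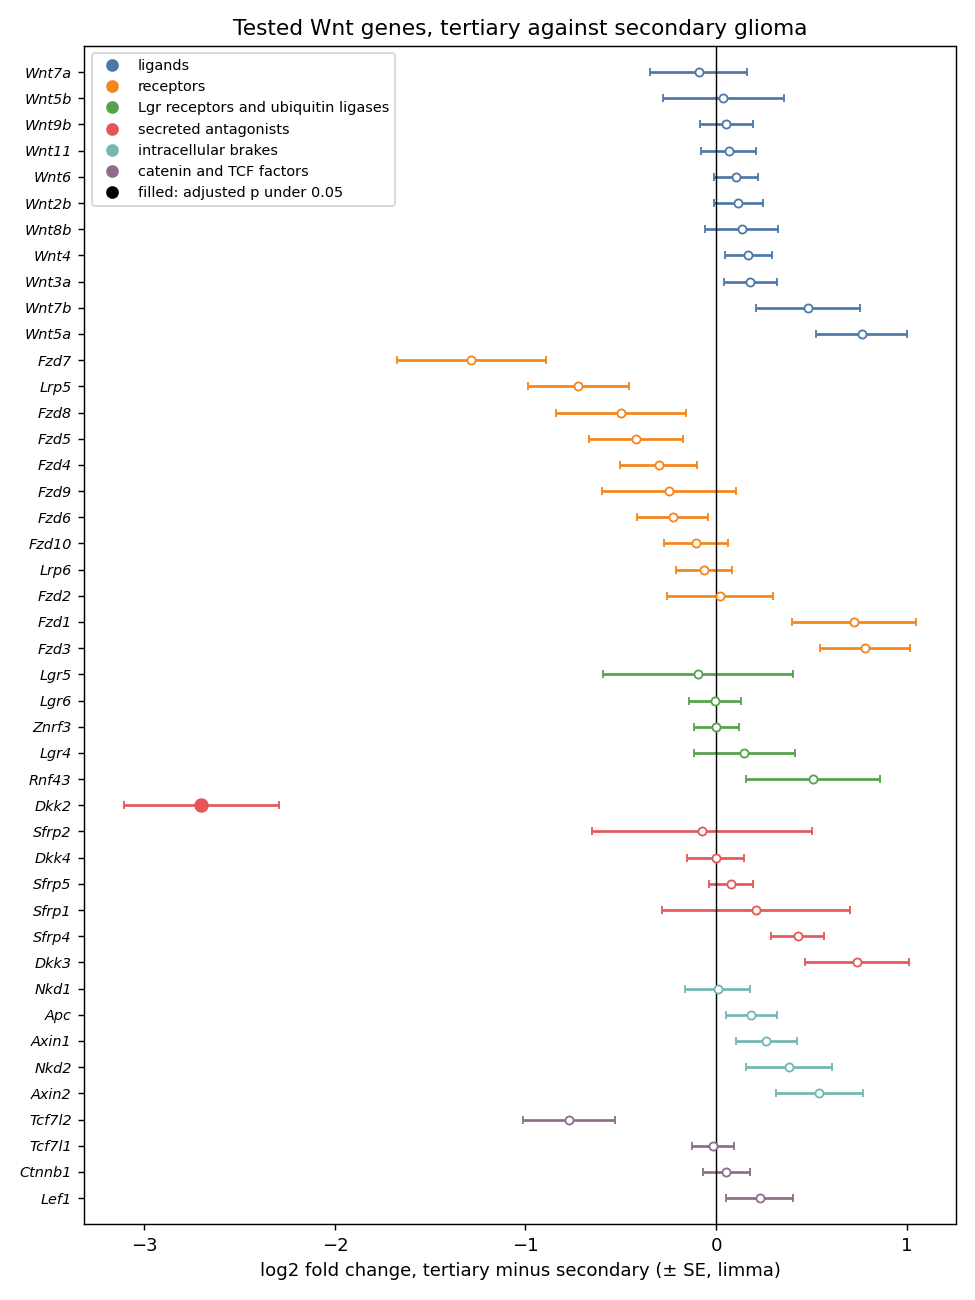
Log2 fold change of each of the 44 tested Wnt genes (tertiary minus secondary, x axis, bars are limma's standard error, n = 4 and 3), grouped by role and ordered within each group. Dkk2 alone is filled, at an adjusted p under 0.05, and its tertiary mean lies below the dim limit, so its point is not an exact fold; Fzd7 is the only other gene with a difference of at least 1.

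The called gene was the secreted antagonist Dkk2, a dickkopf protein that binds the co-receptors Lrp5 and Lrp6 and, depending on the cell, blocks or weakly activates them. Its log2 level was 6.89, 6.08, 5.15 and 5.25 in secondary gliomas 1 to 4, and 3.33, 3.01 and 3.09 in tertiary gliomas 1 to 3. The groups did not overlap: every tertiary value lay below the dim limit and every secondary value above it. With the tertiary arrays set at the dim limit, Dkk2 was at least 3.61-fold lower in tertiary gliomas (limma on the measured values, adjusted p = 0.00567; means 5.84 ± 0.81 and 3.14 ± 0.16, SD). The dim limit is a percentile of all probes and not a detection call, and Dkk2 was measured by 1 probe. The fall accompanied that of the microglia and macrophage markers, whose mean was 9.96, 10.2, 10.6 and 10.1 in secondary gliomas 1 to 4. Within that group, Dkk2 was highest in secondary glioma 1, where the marker mean was lowest. It was lowest in secondary glioma 3, where the marker mean was highest. Pericyte and fibroblast markers were mixed. Of 13 tested, 2 fell to below the dim limit (Anpep at least 2.72-fold and Abcc9 at least 2.03-fold lower), 1 rose (Lama1 by 0.99 on the log2 scale, adjusted p = 0.0139) and 10 did not pass. The part of any of these markers in the result was not tested.

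Upstream sequences are shown for the called antagonist, for the receptor with the most negative difference (Fzd7) and for Axin2, the most widely used target gene of the pathway. Each is the 250 bases before the annotated start, 5' to 3', from RefSeq on GRCm38.p6. Capitals mark the TCF/LEF letters CTTTGA or CTTTGT on either strand.
Dkk2: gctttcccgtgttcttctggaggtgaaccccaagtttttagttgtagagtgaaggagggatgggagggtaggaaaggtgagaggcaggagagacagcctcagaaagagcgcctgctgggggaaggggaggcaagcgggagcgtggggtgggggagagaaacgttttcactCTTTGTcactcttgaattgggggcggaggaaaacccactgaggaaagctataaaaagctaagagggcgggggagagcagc
Fzd7: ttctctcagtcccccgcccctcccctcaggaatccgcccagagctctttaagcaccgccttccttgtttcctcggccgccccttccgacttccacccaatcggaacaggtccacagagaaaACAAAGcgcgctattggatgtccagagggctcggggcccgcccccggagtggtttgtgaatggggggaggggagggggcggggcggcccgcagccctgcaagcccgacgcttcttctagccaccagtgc
Axin2: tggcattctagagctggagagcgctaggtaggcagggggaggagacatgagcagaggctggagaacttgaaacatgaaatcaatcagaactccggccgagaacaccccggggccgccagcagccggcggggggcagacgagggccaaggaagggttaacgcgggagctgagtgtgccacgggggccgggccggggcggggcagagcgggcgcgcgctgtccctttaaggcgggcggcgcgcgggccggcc
The Dkk2 window spans chr3:132085042-132085291, the Fzd7 window chr1:59481897-59482146 and the Axin2 window chr11:108920099-108920348, all on the plus strand. Dkk2 holds 1 match, whose first base is at -80 from the start, Fzd7 holds 1 at -129, and Axin2 holds 0. Over windows of 300 bases, from 250 before to 50 after the start, these letters occur in 31.2% of all 32851 RefSeq windows and in 24.4% of the 45 windows of the 36 members with an entry. A match is a description of the letters and not a binding site.

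Among the ligands, 11 of 19 were tested, none was called, and the median log2 fold change was 0.12. Wnt5a, a ligand best known for signalling without beta-catenin, read 4.74, 4.20, 3.84 and 3.85 in secondary gliomas 1 to 4 and 4.71, 5.04 and 5.02 in tertiary gliomas 1 to 3. Secondary glioma 1 lay within the tertiary range, and 2 of the secondary values were under the dim limit. The log2 fold change was 0.76 ± 0.24 (SE, limma, adjusted p = 0.110). Without secondary glioma 1, the sample inside the tertiary range, it passed at 0.96 (adjusted p = 0.0223). Wnt5a passed in 2 of 15 alternative fits, with an adjusted p of up to 0.288. The other 3 probes of Wnt5a lay below the dim limit.

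Wnt7a and Wnt7b are ligands that neural cells send to brain vessels, where they drive vessel growth and barrier formation. Wnt7a read 6.44, 6.71, 6.23 and 6.38 in secondary gliomas and 6.44, 5.77 and 6.83 in tertiary gliomas, a mean of 6.44 ± 0.20 (SD, n = 4) and 6.35 ± 0.53 (n = 3), and a log2 fold change of -0.09 with a 95% interval of -0.68 to 0.49. Wnt7b read 6.13, 5.48, 5.49 and 5.95 in secondary gliomas and 5.66, 6.56 and 6.52 in tertiary gliomas, with tertiary glioma 1 inside the secondary range (log2 fold change 0.48 ± 0.27 SE, adjusted p = 0.324). The beta-catenin-activating ligand Wnt3a lay between 5.36 and 5.84 in all samples, and Wnt4, Wnt2b, Wnt6, Wnt11, Wnt5b, Wnt8b and Wnt9b differed by 0.17 or less. The remaining 8 ligands were dim: the group means of Wnt1, Wnt2, Wnt3, Wnt8a, Wnt9a, Wnt10a and Wnt10b lay between 2.16 and 3.79, and those of Wnt16 were 3.88 and 4.07.

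All 12 receptor genes were tested, and none was called. Their median log2 fold change was -0.24, and 9 of the 12 had a lower mean in tertiary gliomas, against 5688 of the 14453 genes tested. Among the 9, the sign of Fzd9, Fzd10 and Lrp6 changed in some alternative fits. Fzd7, a Frizzled receptor of stem and progenitor cells, read 7.59, 7.47, 8.02 and 6.82 in secondary gliomas 1 to 4 and 5.33, 6.72 and 6.52 in tertiary gliomas 1 to 3. Every tertiary value was below every secondary one, though tertiary glioma 2 and secondary glioma 4 were only 0.10 apart on this scale. The log2 fold change was -1.29 ± 0.39 (SE, limma, adjusted p = 0.101), with an unadjusted p of 0.0115. The other probe of Fzd7 lay below the dim limit, with a difference of -0.14 and overlapping groups. The 3 tertiary samples also had the lower microglia and macrophage markers, whose part in the Fzd7 difference was not tested.

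Fzd3, a receptor needed for axon guidance and planar polarity, differed the other way. Its level was 8.11, 7.58, 7.41 and 8.06 in secondary gliomas 1 to 4 and 8.22, 8.62 and 8.88 in tertiary gliomas 1 to 3, with no overlap. The log2 fold change was 0.78 ± 0.24 (SE, limma, adjusted p = 0.0998), or 0.96 with an adjusted p of 0.0482 without tertiary glioma 1. That fit called 12.8% of all genes, against 7.38% with all samples. Fzd3 passed in 2 of 17 alternative fits, with an adjusted p of up to 0.273. All 6 of its probes were above the dim limit and had a positive difference, from 0.71 to 0.99. When every probe was tested on its own, 1 of the 6 passed, at 0.99 (adjusted p = 0.0136), so the probe chosen decides the call.

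Fzd1 read 8.67, 8.78, 7.68 and 8.46 in secondary gliomas and 9.46, 8.55 and 9.35 in tertiary gliomas, at 8.40 ± 0.50 (SD) in secondary and 9.12 ± 0.50 in tertiary gliomas (log2 fold change 0.72 ± 0.32 SE, adjusted p = 0.223). Its level of 8.55 in tertiary glioma 2 lay among the secondary values, which reached 8.78. The co-receptor Lrp5 was at 6.66, 7.13, 7.51 and 6.66 in secondary gliomas 1 to 4 and at 6.66, 5.96 and 6.18 in tertiary gliomas 1 to 3. Tertiary glioma 1 equalled the lowest secondary values, and the difference of -0.72 ± 0.26 (SE) had an adjusted p of 0.153. Its partner Lrp6 read 8.96, 8.62, 8.63 and 8.62 in secondary gliomas and 8.80, 8.49 and 8.64 in tertiary gliomas. The groups overlapped, with a difference of -0.06 and a 95% interval of -0.41 to 0.28.

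The other Frizzled receptors had overlapping groups. Fzd8 read 6.42, 6.28, 6.18 and 6.44 in secondary gliomas and 6.63, 5.88 and 4.99 in tertiary gliomas, so that tertiary gliomas 1 and 3 held its highest and lowest values (difference -0.50 ± 0.34 SE). Fzd5 read 5.77, 5.58, 6.61 and 5.94 in secondary gliomas and 5.38, 5.56 and 5.71 in tertiary gliomas, with secondary glioma 3 highest (-0.42 ± 0.25). Fzd4, which also serves as the Norrin receptor of vessels, read 5.61, 4.97, 5.49 and 5.66 in secondary gliomas and 5.12, 5.33 and 4.95 in tertiary gliomas (-0.30 ± 0.20). None of these 3 differences was distinguishable from the spread. The polarity receptor Fzd6 read 5.15, 5.69, 5.03 and 5.03 in secondary gliomas and 5.03, 4.94 and 5.03 in tertiary gliomas (-0.23 ± 0.19). Fzd9 read 6.91, 7.47, 6.79 and 7.13 in secondary gliomas and 7.57, 6.02 and 6.89 in tertiary gliomas (-0.25 ± 0.35). Fzd10 read 4.65, 5.10, 5.00 and 4.86 in secondary gliomas and 5.06, 4.66 and 4.68 in tertiary gliomas (-0.11 ± 0.17). The sign of Fzd10 rested on the probe, since its other probe above the dim limit had a difference of 0.52. Fzd2 read 4.68, 4.78, 5.64 and 5.03 in secondary gliomas and 4.60, 5.15 and 5.40 in tertiary gliomas (0.02 ± 0.28), with no separation of the groups.

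**Figure D2:**
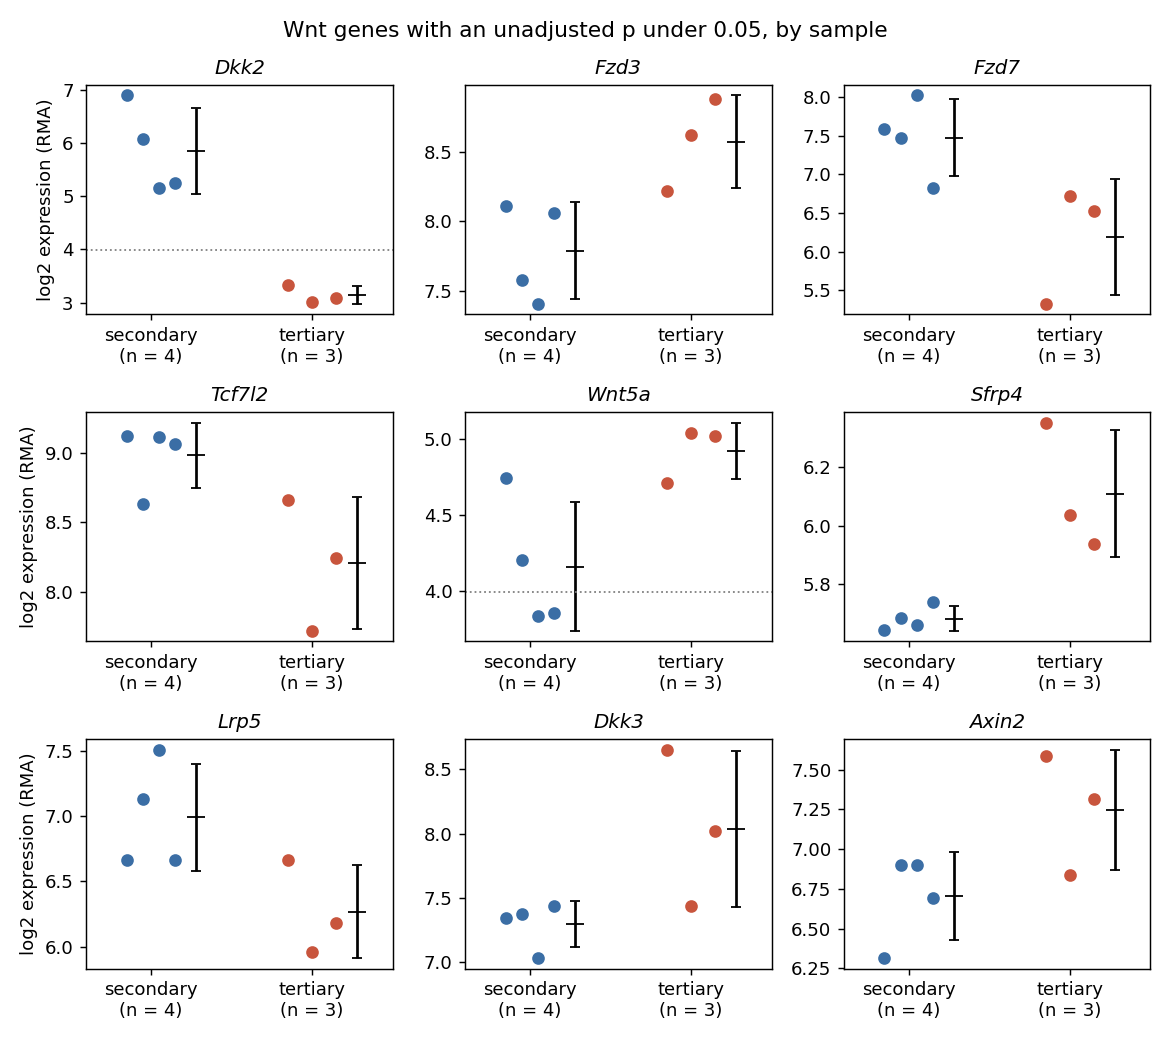
Log2 expression by sample of the 9 Wnt genes with an unadjusted p under 0.05 (y axes differ and do not start at 0; blue secondary, n = 4; red tertiary, n = 3; bars are mean ± SD; the dotted line is the dim limit, in the panels that reach it). Dkk2, Fzd7, Fzd3 and Sfrp4 have groups that do not overlap, and the other 5 have groups that meet.

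The R-spondin receptors Lgr4, Lgr5 and Lgr6 and the ubiquitin ligases Rnf43 and Znrf3, which remove Frizzled receptors from the surface unless R-spondin restrains them, were all tested and none was called. Their median log2 fold change was 0.00. Lgr5, a stem cell marker of many epithelia, ran from 3.87 in secondary glioma 3 to 6.07 in secondary glioma 4, a wider spread than between the groups (log2 fold change -0.10 ± 0.50 SE). Znrf3 stayed between 5.71 and 5.94. Rnf43 was at 5.92 ± 0.62 (SD) and 6.43 ± 0.41, with secondary glioma 4 lowest at 4.99.

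Of the 9 secreted antagonists, 7 were tested. Beyond Dkk2, Sfrp4 and Dkk3 had the lowest p. Sfrp4, a secreted protein with a Frizzled-like domain that captures Wnt ligands, read 5.64, 5.68, 5.66 and 5.74 in secondary gliomas 1 to 4 and 6.35, 6.04 and 5.94 in tertiary gliomas 1 to 3. The groups did not overlap, but the difference was small at 0.43 ± 0.14 (SE, limma, adjusted p = 0.119). Dkk3, a divergent dickkopf whose effect on Wnt signalling is unclear, read 7.34, 7.37, 7.03 and 7.44 against 8.65, 7.44 and 8.02. Tertiary glioma 2 met the highest secondary value, and the difference was 0.74 ± 0.27 (adjusted p = 0.157), with 0.59 at its other probe.

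Sfrp1 and Sfrp2, of the same family as Sfrp4, varied most between tertiary gliomas. Sfrp1 was at 5.08, 5.64, 5.43 and 6.12 in secondary gliomas 1 to 4 and at 5.48, 7.02 and 4.84 in tertiary gliomas 1 to 3. Sfrp2 was at 7.29, 7.70, 6.60 and 8.27 and at 7.79, 8.32 and 6.06. For both genes the tertiary values reached above and below all secondary ones. Their SD there was 1.12 and 1.18, against a median SD of 0.21 over the tested members in that group. Neither difference between groups was distinguishable from this spread, at 0.21 ± 0.49 (SE) and -0.07 ± 0.58. Sfrp5 and Dkk4 differed by 0.08 and -0.00294, and Dkk1 and Wif1, 2 widely studied inhibitors, were dim, with group means of 3.10 and 3.32 for Dkk1. Wif1 read 1.41, 1.33, 1.21 and 2.91 in secondary gliomas and 1.41, 1.41 and 1.41 in tertiary gliomas.

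The intracellular brakes were tested in all 5 cases, and none was called. Each had a higher mean in tertiary gliomas (median log2 fold change 0.26), as did 8765 of the 14453 genes tested. Axin2, a scaffold of the destruction complex that beta-catenin itself induces, read 6.31, 6.90, 6.90 and 6.69 in secondary gliomas 1 to 4 and 7.59, 6.84 and 7.31 in tertiary gliomas 1 to 3. Tertiary glioma 2 lay inside the secondary range. The difference was 0.54 ± 0.23 (SE, limma, adjusted p = 0.197) at this probe and 0.09 at the other. Its relative Axin1 differed by 0.26 ± 0.16 and the tumour suppressor Apc by 0.19 ± 0.13, with all 4 Apc probes positive. Apc read 9.28, 9.34, 9.14 and 9.44 in secondary gliomas and 9.40, 9.43 and 9.62 in tertiary gliomas, and the groups overlapped. Nkd1 and Nkd2, which bind Dishevelled, differed by 0.01 ± 0.17 and 0.38 ± 0.23.

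Beta-catenin itself, Ctnnb1, read 11.89, 11.81, 11.74 and 11.94 in secondary gliomas and 11.88, 11.82 and 12.001 in tertiary gliomas (log2 fold change 0.05, 95% interval -0.23 to 0.34). Its other 2 probes differed by 0.28 and 0.37, neither of them called. Lef1, a TCF partner, read 5.94, 5.6004, 5.81 and 5.29 in secondary gliomas and 5.94, 5.78 and 5.94 in tertiary gliomas. Tcf7l1, which mostly represses, read 4.95, 5.02, 4.95 and 4.95 in secondary gliomas and 4.95, 4.98 and 4.93 in tertiary gliomas. Neither differed beyond its spread, at 0.23 ± 0.18 and -0.02 ± 0.11 (SE). Tcf7l2, a TCF factor also required for oligodendrocyte maturation, read 9.12, 8.63, 9.11 and 9.07 in secondary gliomas 1 to 4 and 8.66, 7.72 and 8.24 in tertiary gliomas 1 to 3. Tertiary glioma 1 lay just above the lowest secondary value. The difference was -0.77 ± 0.24 (SE, limma, adjusted p = 0.107), with an adjusted p of 0.0323 without tertiary glioma 1. That fit called 12.8% of all genes and the fit with array weights 13.4%, against 7.38% in the fit reported. Tcf7l2 passed in these 2 of 17 alternative fits, with an adjusted p of up to 0.284 over the 17. All 4 of its probes were negative, from -0.77 to -0.43. Of the mature oligodendrocyte markers in the same samples, Mog fell by 2.42, Mag by 2.42, Mal by 1.74 and Ermn by 2.62 on the log2 scale, and their part in the Tcf7l2 difference was not tested.

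**Figure D3:**
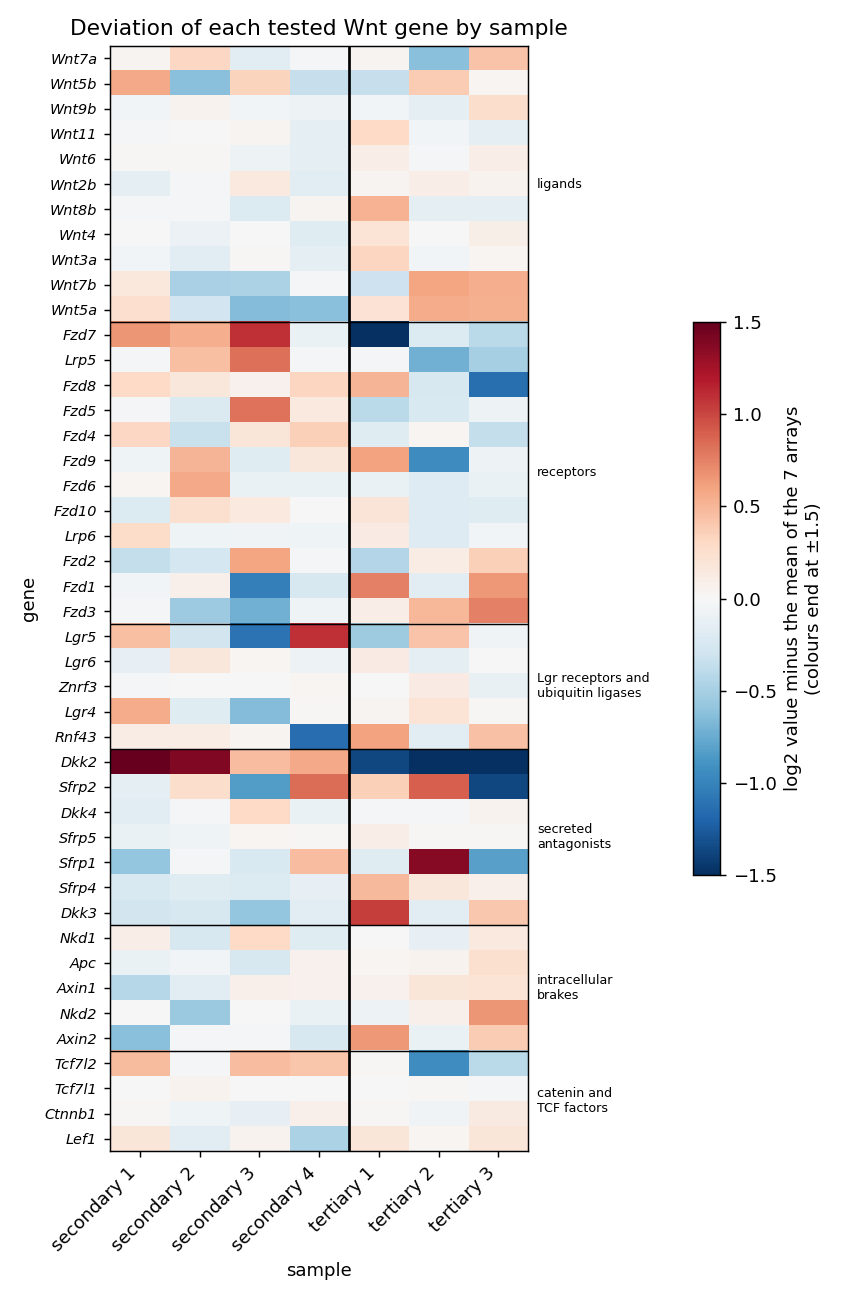
Log2 value of each of the 44 tested Wnt genes (rows, by role) in each sample (columns) minus its mean over the 7 arrays, with colours that end at 1.5 in either direction. Dkk2 divides the groups, while Sfrp1, Sfrp2 and Lgr5 vary within them.

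Agreement between probes was checked for the 19 members with over 1 probe above the dim limit. In 15 of the 19 all such probes had the same sign, and the exceptions were Fzd10, Lrp6, Sfrp1 and Tcf7l1, each with a difference near 0 at the probe used except Sfrp1. Of 77 member probes above the dim limit, 2 were called when each was tested alone. These were 1 probe of Fzd3 and the Dkk2 probe, which entered only through its secondary values. The share of all probes called in that fit was not taken, so the count has no background beside it. Samples also contributed unequally. Tertiary glioma 1 held the highest value in 13 of 44 members (29.5%, against 19.7% of all genes), and tertiary glioma 2 in 5 (11.4% against 22.3%).

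**Figure D4:**
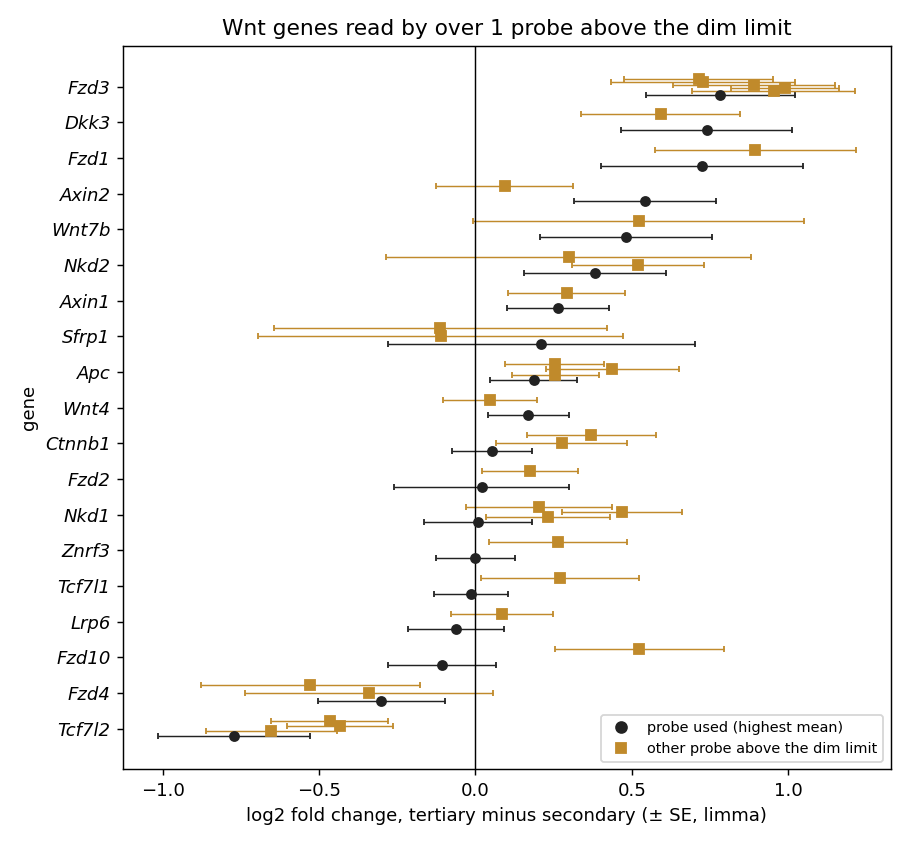
Log2 fold change (tertiary minus secondary, x axis, bars are limma's standard error) of every probe above the dim limit for the 19 Wnt genes with over 1 such probe; black marks the probe used. The 6 Fzd3 probes all lie between 0.71 and 0.99, and the 4 Tcf7l2 probes between -0.77 and -0.43.

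The rest of the pathway was read from a list of 124 genes, of which 108 were tested. There were 2 called higher and 4 lower (5.56%, against 7.38% of all genes), with a median log2 fold change of 0.05. None of the 25 genes of Wnt secretion and the cell surface or the 18 nuclear genes was called. Wls, which carries Wnt proteins to the surface, was at 7.17 ± 0.36 (SD) and 6.11 ± 0.92, the lowest value being 5.12 in tertiary glioma 3 (log2 fold change -1.06, adjusted p = 0.170). Porcn, which attaches their lipid, differed by -0.22 ± 0.21 (SE). The Wnt5a receptors Ror1 and Ror2 differed by -0.16 ± 0.24 and 0.17 ± 0.16, and the kinase Gsk3b, which phosphorylates beta-catenin, by 0.23 ± 0.14.

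Among targets reported in other tissues, the urokinase receptor Plaur fell by 1.72 ± 0.27 (SE, limma, adjusted p = 0.00725) and remained called when any 1 sample was left out. Plaur was not called in a limma fit that also allowed for the replicate number (adjusted p = 0.0613). The inhibitor of differentiation Id2 fell by 1.09 ± 0.21 (adjusted p = 0.0189), and its call was lost when secondary glioma 2 (adjusted p = 0.0560), tertiary glioma 2 (0.0808) or tertiary glioma 3 (0.0776) was left out. The hyaluronan receptor Cd44 rose by 1.49 ± 0.31 (adjusted p = 0.0290), with an adjusted p of 0.0542 to 0.0821 without each secondary glioma and 0.0885 without tertiary glioma 3. Targets more often used as readouts of beta-catenin were not called: Apcdd1 differed by -0.30 ± 0.28, Tnfrsf19 by 0.72 ± 0.40, Ccnd1 by 0.20 ± 0.21, Myc by 0.01 ± 0.19 and Notum by -0.05 ± 0.12. Sp5 had a mean over all arrays below the dim limit, at 3.79 ± 0.14 (SD) and 4.10 ± 0.11, with groups that did not overlap. Microglia and macrophage markers, which were lower in the tertiary samples, moved in the same direction as Plaur and Id2, and their part was not tested.

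Daam1, a formin that links Dishevelled to the cytoskeleton in planar polarity, fell from 8.56 ± 0.04 (SD) to 7.81 ± 0.19 (adjusted p = 0.0136), or 0.0506 without tertiary glioma 2. Macf1, a cytoskeletal linker that binds the Axin complex, fell by 0.60 ± 0.14 (SE, adjusted p = 0.0411), and Siah1a, a ubiquitin ligase that can act on beta-catenin, rose by 0.64 ± 0.14 (adjusted p = 0.0332). Macf1 and Siah1a were not called without any 1 of the 6 samples other than tertiary glioma 1, at an adjusted p of 0.0796 to 0.149 for Macf1 and 0.0514 to 0.0915 for Siah1a. With all probes of a gene averaged, the calls of Daam1 (0.0945), Macf1 (0.195) and Cd44 (0.0619) were lost. The count of 6 called pathway genes was 11 without tertiary glioma 1. It was 2 or 3 without most other samples, namely secondary gliomas 1, 2 and 4 and tertiary gliomas 2 and 3. Over all genes, 12.8% were called without tertiary glioma 1 and 4.51% to 6.42% without those other samples, against 7.38% with all samples.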

How the data were processed

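RNA of 7 samples was measured on Affymetrix mouse arrays. Total RNA was amplified from 30 ng by whole-transcriptome amplification (NuGEN), per the labels' protocols. The deposited table holds log2 values, which the authors made with RMA per the submitters' processing notes. Neither its version nor the log base is stated, and the base follows from the range of the values. RMA forces arrays to one distribution and removes global shifts. Array medians lay between 5.57 and 5.64. Precision is limited by having 7 arrays. Detection calls and batches were not analysed here.

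Of 45101 probes, 34945 had 1 gene symbol in the platform annotation, 932 several and 9160 none, and 64 were controls. Genes whose probe mean was below the 25th percentile of all probes were left out, and a called gene with a tertiary mean below it is given a least fold against that limit. Tertiary were compared with secondary gliomas with limma 3.58.1 (lmFit, eBayes) in R 4.3.3, with no covariate and Benjamini-Hochberg adjustment over the 14453 genes tested. Simulated data held 100 changes of 1 on the log2 scale and 100 of 2 among 14453 genes, with independent normal noise. The fit recovered 53% and 87% of them, with 7 false calls. A gene that was not called is therefore not shown to be unchanged. Recovery depends on how many genes change, and the comparison itself called 1066, so these shares need not hold for it. Members, gene lists and the rule for named genes were chosen with earlier results of these data known. The rule names every member with an unadjusted p under 0.05, the 3 largest differences in each direction and a fixed set of genes. Wnt3a, Sfrp2, Lgr5, Znrf3, Rnf43, Axin1, Nkd1 and Nkd2 were singled out after their values were seen. At most 5.39% of probes had equal values on any pair of arrays, and all 7 were counted. Alternatives covered probe choice, dim filter, normalization, variance, array weights, a replicate block and leaving out samples. Figures used matplotlib 3.10.9 and pandas 2.3.3 in Python 3.11.15.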

Additional observations from a re-analysis of the deposited data

Results flagged for a closer look

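In 4 of the 44 tested members, 1 secondary glioma stood apart from the other 3 by Dixon's test at the 95% level. For normally distributed values, chance alone gives this in about 1 in 20 groups. The share over all genes was not taken, so the count has no measured background beside it. Lrp6 was at 8.96 in secondary glioma 1, against 8.62 to 8.63 in the others. Rnf43 was at 4.99 in secondary glioma 4, against 6.18 to 6.25. Tcf7l2 was at 8.63 in secondary glioma 2, against 9.07 to 9.12, and this is the sample that met the tertiary range. Tcf7l1 was at 5.02 in secondary glioma 2, against 4.95 in the other 3, which shared the same deposited value, so the gap is small in size.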

How the results depend on the processing

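A filter at the 50th percentile removed Dkk2, leaving 0 members called lower. The 16 other fits called it, but its tertiary values lay below the dim limit, so this count is no measure of stability. Array weights gave 2 members called higher (Fzd3 and Wnt5a) and 2 lower (Dkk2 and Tcf7l2). That was 9.09% of the tested members, against 13.4% of all genes. With 1 sample left out the member count was 0 to 1 higher and 1 to 2 lower. The additions were Wnt5a without secondary glioma 1 (4.55% of members called, against 6.42% of all genes). Without tertiary glioma 1 they were Fzd3 and Tcf7l2 (6.82% of members, against 12.8% of all genes). The members' median log2 fold change of 0.05 was 0.11 with all probes averaged, 0.0851 with a filter at the 50th percentile, 0.0938 with median centring and 0.0512 to 0.0936 with 1 sample left out. Over all genes tested, median centring gave a median of 0.13 in place of 0.09. The 6 other pathway genes called became 3 with all probes averaged and 11 with array weights. They became 10 without both secondary glioma 3 and tertiary glioma 1, and 2 to 11 with 1 sample left out. The share of all genes called in these fits was, in order, 7.57%, 13.4%, 10.8% and 4.51% to 12.8%, against 7.38%. Same-numbered deviations correlated at 0.04, -0.14 and 0.01, but these were not compared with differently numbered ones. Whether the replicate numbers pair the samples is therefore not settled. With the number as a replicate block, the fit gave 0 other pathway genes (Plaur at an adjusted p of 0.0613) and 1 member, Dkk2. Over all genes, 1066 were called, 1933 with array weights, 1852 without tertiary glioma 1, 651 without tertiary glioma 2, 657 without tertiary glioma 3 and 636 with the replicate block. Higher calls made up 14.2% of these in the comparison as reported, 34.6% with array weights, 42.3% without tertiary glioma 1 and 35.8% when secondary glioma 3 was left out too, and 4.15% without tertiary glioma 2. Among 25 named members the sign differed in 18 of 416 values, all of members that were not called. These were Fzd2, Fzd9, Fzd10, Lrp6, Sfrp1, Tcf7l1 and Wnt7a. The causes were not tested.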

Other observations

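Several Wnt probes, dim or not, carried the same deposited value on different arrays. A value shared by 3 or more of the 7 arrays occurred in 10 of the 54 members (18.5%, against 13.6% of all genes), among them Wnt10a on 6 arrays, and Fzd6, Tcf7l1, Wnt8a and Wif1 on 4. Wif1 was at 2.91 in secondary glioma 4 and between 1.21 and 1.41 in the other 6 samples, all below the dim limit. Tertiary glioma 2 had the highest value of both Sfrp1 and Sfrp2 and tertiary glioma 3 the lowest.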
